A study of Drosophila melanogaster with 64 samples.

Results

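The normal passage from larval to adult testis was read from an irradiated parental stock of Drosophila melanogaster that carries no translocation, as 4 adult and 4 third-instar libraries out of the 64 in the series. Members were chosen by their titles alone, and all 8 libraries entered the main test of the stage change. Males of this stock carry the X chromosome Dp(1;1)scV1, marked y2, y+ and sc+ together with scV1, su(wa) and wa, and further with cv, v and f. The genotype label also names the compound X C(1)M4, y, and prints the symbol y as gamma. Both stages share every one of these alleles and the irradiated origin, so no wild-type male was compared. Larval pools held 15 testes each from late third-instar (L3) larvae, which had stopped moving but had not everted their anterior spiracles. Papain and collagenase were used to strip fat body from the larval testes only. Adult pools held 20 testes each from males aged 1 to 5 days, cut away from the seminal vesicle. The wider series adds 7 lines with translocations between the X and chromosome 2, of which the fertile lines BM4 and BM21 served here as further samples of the same stage change. Their genotypes add T(1;2)BM4 or T(1;2)BM21 to the same marked X, again with C(1)M4, y, and each had 4 pools a stage handled in the same way.

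Spermatogenesis in the fly starts at a hub of somatic cells, where germline stem cells and cyst stem cells divide. Spermatogonia divide mitotically, enter a long spermatocyte phase in which most genes of the later programme are transcribed, pass through meiosis and elongate as spermatids wrapped by cyst cells. The testis of a late larva has reached the spermatocyte phase, whereas that of an adult also holds elongating spermatids and sperm and has joined the muscle sheath and terminal epithelium that form in the pupa. In bulk RNA, fewer cells of a type and less RNA per cell cannot be told apart, and this holds for every level given here.

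Depth ran from 2971832 counts (adult replicate 4) to 24650332 in adult pools and from 8961413 to 14845562 in L3 pools. No library of a stage repeated another. Each replicate is a pool of testes, and since no label says that pools came from different crosses, the p-values rest on pool-to-pool spread that may be technical. Stage, enzyme digest and place on the RNA plate (wells A1 to A4 for L3 and C9 to C12 for adults) cannot be told apart. The tissue label held against its markers. Germline nos (7.26 ± 1.19 against 11.5 ± 0.996 CPM, adult mean ± SD against L3, n = 4 each) and betaTub85D (3639 ± 367 against 2593 ± 165 CPM), and the cyst cell genes eya (55.7 ± 3.41 against 73.6 ± 4.09 CPM) and zfh1 (28.7 ± 7.85 against 50.7 ± 3.68 CPM), were counted in every pool. CPM here are TMM-scaled counts per 1e+06, a scaling that corrects the library sizes for the balance of the compared genes.

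Most genes differed between the stages, and the large differences lay on the adult side. Of 11286 genes with enough counts, 4069 (36.1%) were higher and 4350 (38.5%) lower in adult testes, 74.6% together, at an adjusted p under 0.05 (edgeR quasi-likelihood test, Benjamini-Hochberg adjustment). A change of at least 2-fold was found for 1881 genes higher in adults (16.7%) and 315 lower (2.79%). At 8-fold the numbers were 387 and 9, and at 64-fold they were 119 and 4. Scaling by library size alone moved the median of all genes by −0.41 on the log2 scale and turned this balance. Genes higher in adults then made up 29.6% of all called genes in place of 48.3%, and 34.4% of those past 2-fold in place of 85.7%. Changes are therefore given relative to the TMM scale, on which the median gene changed by −0.05. In 7428 genes (65.8%) no adult pool overlapped an L3 pool.

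**Figure D1:**
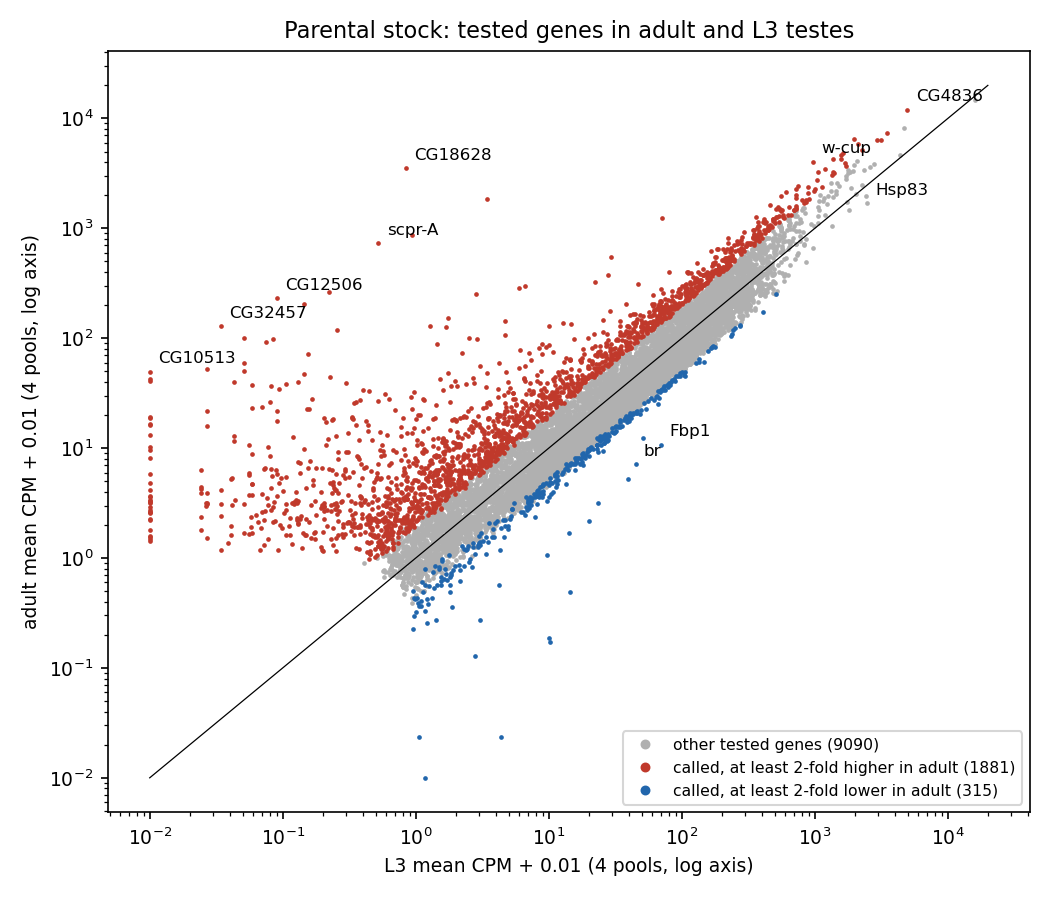
Mean CPM of each tested gene in L3 (x) and adult (y) parental testes, both on log axes with 0.01 CPM added, and the line of equal level. Red points are the 1881 genes called at least 2-fold higher in adults, blue points the 315 called at least 2-fold lower, and the column of red points at the left edge has no L3 count.

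The adult transcript pool was broader and also more concentrated. Adult libraries held 10983 ± 106 genes at 1 CPM or more, against 10618 ± 37.3 in L3, with no overlap (exact two-sided permutation test, p = 0.0286, the smallest that 4 against 4 can give). For this count alone CPM were scaled by library size without TMM. Adult replicate 4, the shallowest pool, had 11121 such genes, and adult replicate 2, the deepest, had 10875. The part of depth in this count was not tested. The 100 most abundant genes took 24.7 ± 0.851% of counts in adults and 18.1 ± 0.629% in L3 (exact two-sided permutation p = 0.0286). Genes called 2-fold higher in adults made up 30.4 ± 0.858% of adult counts and 15.3 ± 0.595% of L3 counts, a description with no test. Genes called 2-fold lower made up 0.402 ± 0.0125% and 1.16 ± 0.0438%. The direction differed with the level of the gene. Of the 92 genes with a mean of 10 or more on the log2 CPM scale, 88.0% were higher in adults, while of the 3289 genes between 4 and 6 a share of 56.3% were lower.

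In absolute terms, genes of sperm leucylaminopeptidases and several abundant genes without a name rose most. CG4836, a gene with no name beyond its number, held 14256, 13733, 9906 and 10308 CPM in the adult pools and 4957, 5013, 4728 and 5185 in the L3 pools (log2 change 1.28 ± 0.12 SE, adjusted p = 8.03e-07). The lowest adult pool lay well above the highest L3 pool, and the adult pools were the more spread. The sperm leucylaminopeptidase genes S-Lap7 (7305 ± 1444 against 3489 ± 494 CPM, log2 change 1.07 ± 0.14 SE, adjusted p = 1.72e-05), loopin-1 (6314 ± 1133 against 2940.1 ± 166 CPM, log2 change 1.103 ± 0.12 SE, adjusted p = 2.39e-06) and S-Lap1 (8241 ± 2251 against 4649 ± 783 CPM, 0.83 ± 0.18, adjusted p = 9.16e-04) make the protein that fills the paracrystalline material of the sperm mitochondria. They are members of 1 family, so reads may be shared between copies. Pen, an importin that carries proteins into nuclei, rose from 2263 to 5189 CPM (1.198 ± 0.08, adjusted p = 4.25e-08). The unnamed genes CG31740 (1.703 ± 0.13, adjusted p = 1.01e-07), CG33340 (1.45 ± 0.09, adjusted p = 2.37e-08), CG2127 (1.57 ± 0.08, adjusted p = 4.83e-09), CG12860 (1.57 ± 0.11, adjusted p = 4.70e-08) and CG12699 (1.02 ± 0.08, adjusted p = 1.52e-07) rose as well.

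The 12 genes that lost most CPM by the naming rule changed by −0.29 to −1.22 on the log2 scale, and 2 of them, CG34434 (−1.02 ± 0.10, adjusted p = 1.03e-06) and lncRNA:CR43264, fell by more than 2-fold. The chaperone gene Hsp83 held 1897, 1793, 1584 and 1534 CPM in adults and 2250.1, 2519, 2598 and 2579.7 in L3 (−0.55 ± 0.09, adjusted p = 8.56e-05), with no overlap. Hsc70-4 (−0.29 ± 0.07, adjusted p = 0.00132), Hsp26, a small heat shock protein gene (−0.76 ± 0.07, adjusted p = 1.37e-06), and the elongation factor gene eEF1alpha1 (−0.29 ± 0.07, adjusted p = 0.0029) fell too. heph, the fly polypyrimidine tract binding protein, fell by 0.53 on the log2 scale, lost by 0.79 and the double-stranded RNA binding gene blanks by 0.99, from 498 to 252 CPM.

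Genes of dividing germ cells were lower in adult testes. Of 16 germline stem cell and spermatogonial genes 10 fell and 3 rose (median −0.55), of 32 mitotic cell cycle genes 26 fell and 1 rose (−0.60), and of 41 DNA replication genes 28 fell and 2 rose (−0.48). Medians are on the log2 scale and stand beside −0.05 over all tested genes. Phf7, a chromatin reader of male germ cells, held 40.02, 40.1, 38.9 and 39.4 CPM in adult pools and 78.6, 77.5, 82.2 and 73.01 in L3 pools (−0.97 ± 0.07, adjusted p = 6.07e-08), with no overlap between the stages. The germline gap junction gene zpg (−1.02 ± 0.16, adjusted p = 8.83e-05) and tut, a partner of bam in stopping spermatogonial division (−0.88 ± 0.10, adjusted p = 3.54e-06), fell in the same way. Cdk1, the mitotic kinase, went from 61.6, 78.2, 83.3 and 74.1 CPM in L3 to 35.2, 33.8, 33.1 and 32.7 in adults (−1.14 ± 0.09, adjusted p = 2.71e-07). The chromosomal kinase gene aurB (−1.05 ± 0.09, adjusted p = 4.75e-07), the spindle checkpoint gene BubR1 (−0.85 ± 0.08, adjusted p = 6.16e-07), the flap endonuclease gene Fen1 (−1.06 ± 0.11, adjusted p = 2.84e-06) and Pol31, a subunit of DNA polymerase delta (−1.26 ± 0.08, adjusted p = 2.48e-08), fell as well.

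Rbp9, an RNA-binding protein of the Elav family, held 153, 157, 173 and 177 CPM in adults and 45.9, 41.6, 48.9 and 41.95 in L3 (1.88 ± 0.08, adjusted p = 9.00e-10), the only member of the spermatogonial list to rise by 2-fold. Socs36E, an inhibitor and target of JAK-STAT signalling (0.803 ± 0.10, adjusted p = 1.19e-05), and esg (0.56 ± 0.12, adjusted p = 0.00109; adjusted p = 0.323 with library size alone) were the other 2 that rose. In the replication list the GINS subunit gene Psf1 rose (3.85 ± 0.755 against 2.07 ± 0.131 CPM, 0.88 ± 0.17, adjusted p = 5.00e-04), as did Mcm10 (0.27 ± 0.09, adjusted p = 0.019), whose call was lost without adult replicate 1 or L3 replicate 2 (adjusted p = 0.114 and 0.0684) and whose sign turned with library size alone. Variant histones and histone chaperones fell in 12 of 13 cases (median −0.55), led by Nlp (97.7 ± 8.99 against 187 ± 10.4 CPM, −0.95 ± 0.08, adjusted p = 2.88e-07) and the germline linker histone gene BigH1 (84.3 ± 2.57 against 150.5 ± 7.38 CPM, −0.83 ± 0.07, adjusted p = 1.89e-07). Dosage compensation and male-specific genes fell in 9 of 12 cases (−0.55), among them msl-2 (−0.49 ± 0.09, adjusted p = 4.45e-04), while the noncoding RNA gene lncRNA:roX1 rose (37.7 ± 2.42 against 25.9 ± 2.32 CPM, 0.54 ± 0.09, adjusted p = 8.33e-05; adjusted p = 0.226 with library size alone).

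The regulators that open the spermatocyte programme were lower in adults almost to the last gene. Of 18 genes for testis TAFs (tissue-specific partners of the TATA-binding protein), tMAC subunits and their cofactors, 17 fell, none rose and 1, mia, was not called (−0.14 ± 0.07, adjusted p = 0.109), with a list median of −0.92. mia was called lower without adult replicate 4 (adjusted p = 0.0267) and with library size alone (−0.54, adjusted p = 6.21e-05). nht, the testis form of TAF4, held 36.5, 33.3, 31.04 and 34.9 CPM in adult pools and 61.8, 80.96, 73.4 and 71.5 in L3 pools (−1.09 ± 0.09, adjusted p = 3.57e-07). The tMAC genes tomb (20.9 ± 2.31 against 42.8 ± 2.71 CPM, −1.05 ± 0.09, adjusted p = 4.79e-07) and comr (15.2 ± 1.01 against 30.1 ± 1.98 CPM, −1.01 ± 0.09, adjusted p = 3.97e-07) and kmg, a zinc finger gene that keeps somatic genes off in spermatocytes (59.6 ± 4.49 against 116 ± 4.84 CPM, −0.97 ± 0.07, adjusted p = 1.40e-07), fell too. Testis bromodomain genes of the next list went with them, tbrd-2 at −0.85 ± 0.07, adjusted p = 4.23e-07 and tbrd-1 at −0.74 ± 0.09, adjusted p = 7.24e-06.

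Of 22 meiotic and translational regulators 9 were higher (40.9%) and 8 lower (36.4%), shares near the 36.1% and 38.5% of all tested genes (median 0.08, and −0.33 when scaled by library size alone). Several abundant members rose. orb, a cytoplasmic polyadenylation factor, held 1156, 1056, 943 and 1054 CPM in adults and 465, 423, 455 and 448 in L3 (1.23 ± 0.08, adjusted p = 2.20e-08). bol, which controls translation at meiotic entry (2186 ± 212 against 1334 ± 101 CPM, 0.71 ± 0.09, adjusted p = 8.38e-06), fest (3157 ± 395 against 1782 ± 133 CPM, 0.82 ± 0.10, adjusted p = 5.59e-06) and the initiation factor gene eIF4E5 (0.89 ± 0.08, adjusted p = 3.50e-07) rose with it. On the other side Rbp4, which represses translation in spermatocytes, fell from 225, 254, 242 and 237 to 97.3, 114, 123 and 103 CPM (−1.13 ± 0.08, adjusted p = 9.13e-08). twe, the meiotic Cdc25 phosphatase gene, passed the test lower (222 ± 5.48 against 249 ± 10.1 CPM, −0.17 ± 0.06, adjusted p = 0.0279), a call lost with RLE size factors, DESeq2 or all 64 libraries and without L3 replicate 1, adult replicate 1 or adult replicate 2 (adjusted p 0.0564 to 0.0972).

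**Figure D2:**
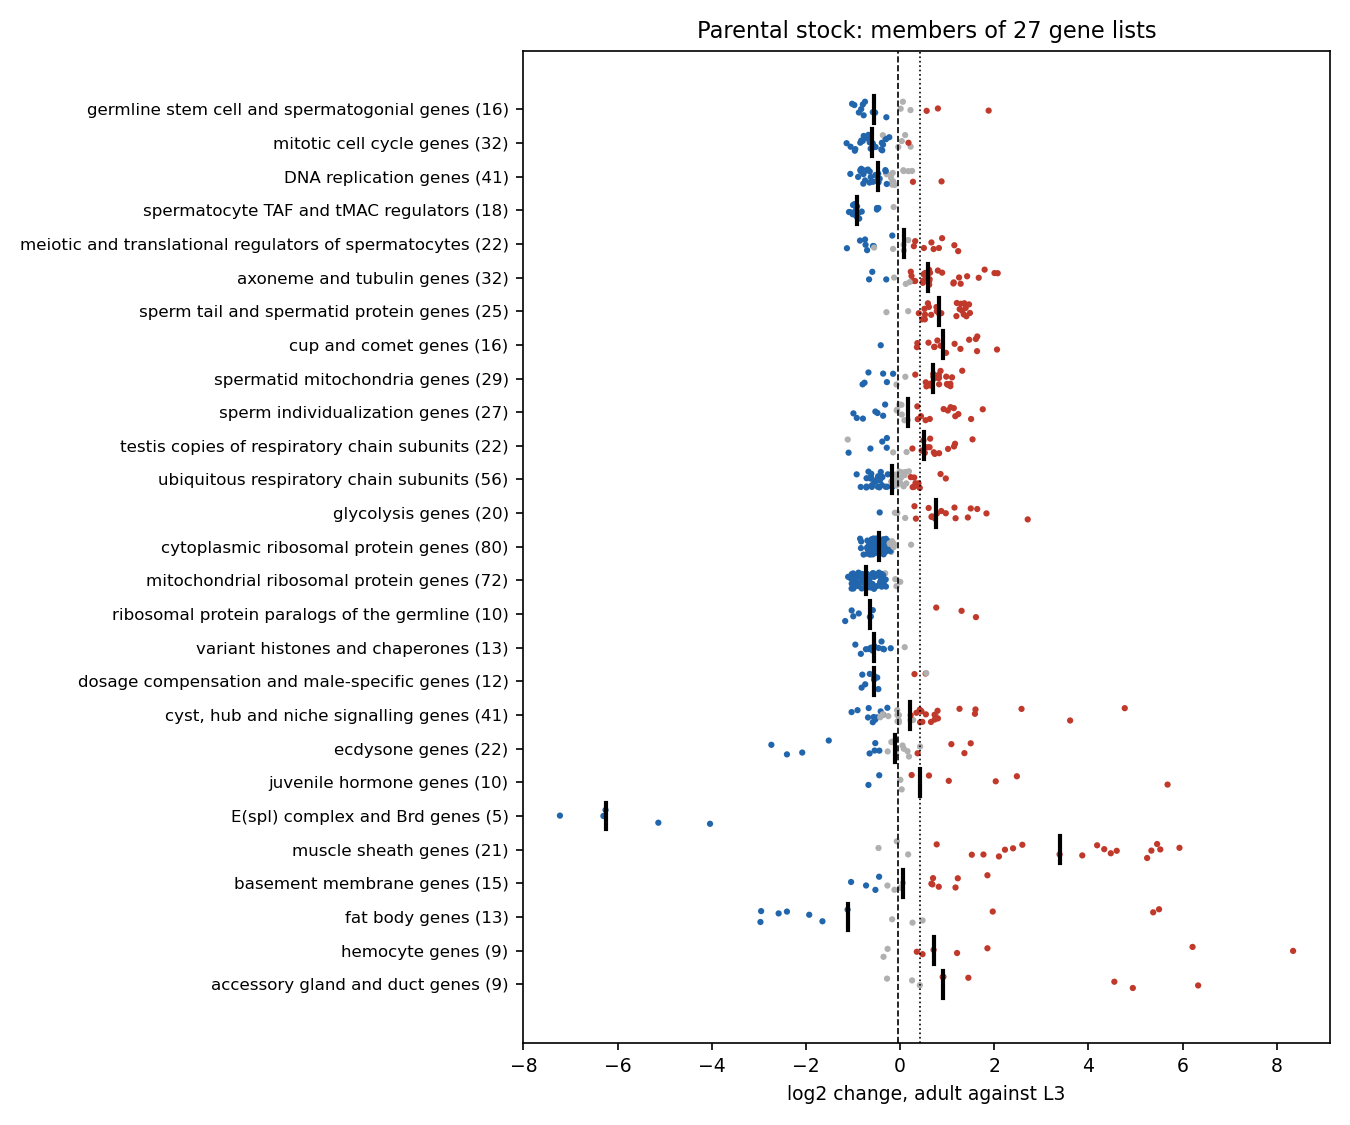
Log2 change from L3 to adult for each tested member of 27 gene lists (rows, number of tested members in brackets). Red and blue points passed the test higher or lower, grey points did not, thick bars are list medians, the dashed line is the median of all tested genes (−0.05) and the dotted line marks where 0 would lie with library size alone; germ cell division and TAF lists lie to the left and spermatid lists to the right.

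Genes of spermatid differentiation were higher in adults. Of 25 sperm tail and spermatid protein genes 23 rose and none fell (median 0.83), of 16 cup and comet genes, known for RNA made after meiosis, 15 rose and 1 fell (0.92), and of 32 axoneme and tubulin genes 26 rose and 3 fell (0.59). With library size alone these medians were 0.42, 0.51 and 0.17. Cup and comet RNA was already plentiful in larvae, with a summed level of 3398 to 3739 CPM in L3 pools against 8678 to 9135 in adult pools. schuy held 571, 553, 503 and 590.05 CPM in adult pools and 192, 172, 173 and 175 in L3 pools (1.64 ± 0.07, adjusted p = 1.30e-09). t-cup (1.63 ± 0.11, adjusted p = 3.89e-08), sunz (1.61 ± 0.09, adjusted p = 1.08e-08) and boly (1.47 ± 0.10, adjusted p = 4.44e-08) rose to a like degree, whereas soti, which limits caspase activation in spermatids, rose less (773 ± 77.7 against 599.5 ± 65.3 CPM, 0.37 ± 0.10, adjusted p = 0.0037) and s-cup fell (−0.41 ± 0.15, adjusted p = 0.0256). The call of s-cup was lost with DESeq2 and in turn without any of 4 libraries (adjusted p 0.0509 to 0.146), and soti turned to −0.03 with library size alone. Among sperm chromatin genes the protamine-like ProtB (323 ± 55.8 against 183 ± 18.6 CPM, 0.83 ± 0.11, adjusted p = 2.59e-05) and ProtA (179 ± 27.3 against 118 ± 4.45 CPM, 0.61 ± 0.10, adjusted p = 8.26e-05) rose, while tHMG1 was not called (0.17 ± 0.09, adjusted p = 0.0899), although it was called higher with RLE size factors and DESeq2 (adjusted p = 0.0349 and 0.0257) and lower with library size alone (−0.23, adjusted p = 0.0387). ProtA and ProtB are near-copies, as are the Mst84D genes, so counts within each pair or cluster may be exchanged.

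Tubulins changed by isotype. alphaTub85E held 149.9, 148, 133 and 141 CPM in adults and 35.97, 36.9, 28.9 and 34.5 in L3 (2.07 ± 0.09, adjusted p = 7.73e-10), and betaTub60D 320.5, 302, 351 and 369.6 and 128, 133, 109 and 129 CPM (1.42 ± 0.09, adjusted p = 1.84e-08). The sperm beta tubulin betaTub85D, far more abundant at both stages, rose less (0.49 ± 0.09, adjusted p = 2.24e-04) and was not called with library size alone (adjusted p = 0.250). Tubulin tyrosine ligase-like genes, whose enzymes add amino acids to tubulin tails and which were grouped after the values were seen, rose in 8 of 11 cases and fell in 2. TTLL6A (641 ± 78.6 against 264 ± 10.8 CPM, 1.28 ± 0.09, adjusted p = 5.40e-08) and TTLL3B (879.6 ± 62.5 against 394 ± 15.1 CPM, 1.16 ± 0.07, adjusted p = 2.37e-08) were examples. Centriole and cilium-base genes of the axoneme list were the ones that fell, with unc at −0.66 ± 0.07, adjusted p = 3.49e-06, dila at −0.59 ± 0.07, adjusted p = 1.24e-05 and Cep135 at −0.29 ± 0.09, adjusted p = 0.0113.

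Individualization, the step that parts the sperm from their shared cytoplasm, had 13 of 27 genes higher and 7 lower (median 0.16, and −0.25 with library size alone). These shares of 48.1% and 25.9% stand beside 36.1% and 38.5% of all tested genes. klhl10, the adaptor of the Cul3 ubiquitin ligase in this step, held 149, 153, 172 and 179.9 CPM in adults and 52.3, 43.2, 49.8 and 47.7 in L3 (1.76 ± 0.09, adjusted p = 2.94e-09). Its partner Cul3 (1531 ± 103 against 728 ± 22.2 CPM, 1.07 ± 0.07, adjusted p = 4.25e-08), the myosin VI gene jar (669 ± 101 against 236 ± 10.1 CPM, 1.51 ± 0.10, adjusted p = 3.95e-08) and the epsin gene lqf (1.14 ± 0.07, adjusted p = 1.20e-08) rose too. Among the 7 that fell were the apoptotic protease gene Dronc (−0.53 ± 0.08, adjusted p = 6.50e-05) and the adaptor genes Dark (−0.48 ± 0.11, adjusted p = 0.00184) and Fadd (−0.79 ± 0.09, adjusted p = 4.32e-06).

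Genes of energy metabolism were divided between testis-specific and general copies. Of 22 testis copies of respiratory chain subunits 14 rose and 5 fell (median 0.51), whereas of 56 ubiquitous subunits 9 rose and 28 fell (−0.18). With library size alone the testis copies stood at 8 higher and 7 lower (median 0.10) and the ubiquitous subunits at 2 higher and 48 lower (−0.59). The sperm cytochrome c gene Cyt-c-d rose (884 ± 139.7 against 499 ± 25.3 CPM, 0.83 ± 0.10, adjusted p = 9.79e-06), while ATPsynbetaL, a testis copy of the ATP synthase beta subunit, held 133, 124, 128 and 129 CPM in adults and 248, 293, 258 and 297 in L3 and so fell (−1.09 ± 0.08, adjusted p = 5.99e-08). Their general counterparts moved the same way, with Cyt-c-p higher (0.86 ± 0.12, adjusted p = 2.75e-05) and ATPsynbeta lower (−0.39 ± 0.10, adjusted p = 0.00393). Of 29 genes for spermatid mitochondria 21 rose and 6 fell (0.71). bb8, a glutamate dehydrogenase gene of spermatids, rose (950.2 ± 53.3 against 381 ± 12.4 CPM, 1.32 ± 0.07, adjusted p = 4.79e-09), but the fusion genes fzo (303 ± 8.997 against 388 ± 12.3 CPM, −0.36 ± 0.06, adjusted p = 1.71e-04) and Opa1 (−0.67 ± 0.07, adjusted p = 1.76e-06) fell. Glycolysis genes rose in 16 of 20 cases and fell in 1 (0.76). Gpdh3, a glycerol-3-phosphate dehydrogenase gene, held 2361, 2326, 1919.5 and 2032 CPM in adults and 617, 580.2, 628 and 599 in L3 (1.83 ± 0.08, adjusted p = 1.45e-09), and the hexokinase gene Hex-A rose from 24.4 to 76.7 CPM (1.64 ± 0.13, adjusted p = 1.97e-07). Ldh was not called (29.6 ± 2.51 against 31.2 ± 2.21 CPM, −0.06 ± 0.09, adjusted p = 0.546), and Pgk was the member that fell (−0.43 ± 0.15, adjusted p = 0.0171), a call lost without L3 replicate 4 or adult replicate 3 (adjusted p = 0.0528 and 0.0556).

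Within families, 39 testis-expressed copies were set against their general counterparts per kilobase of exon within each library. The term testis copy here marks the first gene of a pair, which need not be the main form in the testis. alphaTub85E, for example, held 143 CPM in adults against 3390 for alphaTub84B. The ratio of testis to general copy was higher in every adult pool than in any L3 pool for 14 pairs, lower for 11 and overlapping for 14. The median change was 0.17 on the log2 scale. Taken singly, 65.8% of all tested genes had no overlap between the stages, and no such share was computed for other pairs. Both genes fell in 12 pairs and both rose in 4, and in 1 pair the testis copy fell while the general copy rose. Of all tested genes 36.1% were higher and 38.5% lower. In 8 pairs the testis copy rose while the general copy fell. The proteasome pair Prosbeta5R1 and Prosbeta5 was the clearest of these. Prosbeta5R1 went from 107 to 179 CPM and Prosbeta5 from 162 to 81.1, so that their log2 ratio per kilobase turned from −0.56 in L3 to 1.15 in adults. Cytochrome c oxidase had the same pattern in COX6AL with levy (−1.098 to 0.45), COX5BL with COX5B and COX4L with COX4. UQCR-14L with UQCR-14, the chaperone pair Hsp60B with Hsp60A, Prosalpha6T with Prosalpha6 and Prosbeta2R1 with Prosbeta2 complete the 8. The rise of COX4L was not called when any of 5 libraries was left out (adjusted p 0.0540 to 0.0931), and with library size alone Prosalpha6T and Prosbeta2R1 turned to −0.04 and −0.12 while COX4L and COX5BL were no longer called.

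Other pairs moved together or the opposite way. Of the proteasome copies, Rpt3R (−0.54), Rpt4R (−0.36), Rpt6R (−0.298), Prosbeta4R1 (−0.34), Prosalpha3T (−0.25) and Prosalpha4T1 (−0.83) fell on the log2 scale together with their general counterparts, with the call of Prosalpha3T lost without adult replicate 2 (adjusted p = 0.0640) and that of Prosbeta4R1 lost with RLE size factors and without L3 replicate 2 or 4 (adjusted p 0.0507 to 0.0854). Ratios fell for the spermatocyte copies nht against Taf4 (log2 ratio from 0.79 in L3 to −0.301), sa against Taf8 (2.23 to 1.03) and aly against mip130 (3.21 to 2.15). In these pairs the general gene was not called, at 0.01 ± 0.09 SE for Taf4, 0.26 ± 0.12 for Taf8 and 0.21 ± 0.09 for mip130, although Taf8 and mip130 were called higher under several alternatives, DESeq2 among them (adjusted p = 0.0236 and 0.0446), and Taf4 and mip130 lower with library size alone. Rcd-1r with Rcd-1 was the only pair in which the testis copy fell (−0.73) and the general one rose (0.54), a rise not called with library size alone (0.13, adjusted p = 0.219).

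**Figure D3:**
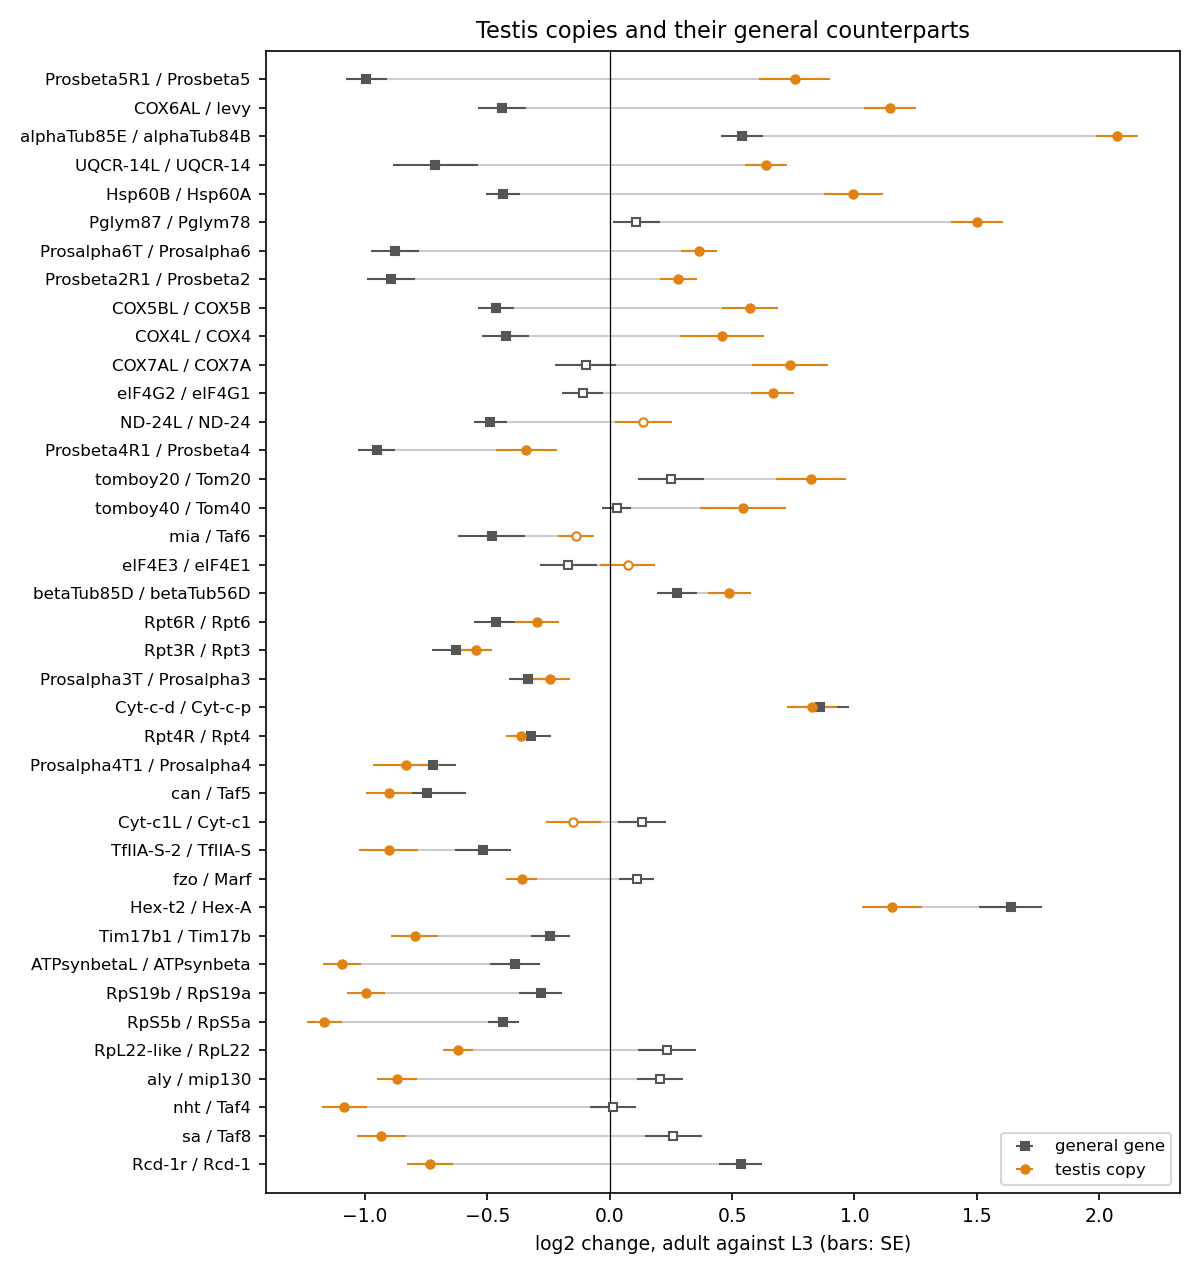
Log2 change from L3 to adult (x, bars are SE) for 39 testis-expressed copies (orange circles) and their general counterparts (grey squares), ordered by the change of their ratio, with filled symbols for genes that passed the test. At the top, from Prosbeta5R1 with Prosbeta5 downward, the copy lies right of its counterpart, and at the bottom, from Rcd-1r with Rcd-1 upward, it lies left.

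The translation machinery fell by small and even steps. Of 80 cytoplasmic ribosomal protein genes 69 fell and none rose (median −0.45), and of 72 mitochondrial ones 68 fell and none rose (−0.73). RpS2 held 352, 345, 327 and 295 CPM in adults and 567, 609, 525 and 643 in L3 (−0.83 ± 0.08, adjusted p = 1.55e-06). mRpL41 (−1.104 ± 0.10, adjusted p = 9.17e-07) and mRpL38 (−1.05 ± 0.09, adjusted p = 5.64e-07) were among the 5 mitochondrial genes past 2-fold. Germline paralogs of ribosomal proteins were divided, with 7 of 10 lower and 3 higher. RpS5b, which is used in the germline, went from 228, 254, 220.3 and 241 to 106, 109, 106 and 98.4 CPM (−1.17 ± 0.07, adjusted p = 1.79e-08), more than its counterpart RpS5a (−0.43 ± 0.06), and RpS19b did likewise against RpS19a. RpL10Aa rose (164 ± 43.4 against 97.7 ± 10.7 CPM, 0.77 ± 0.15, adjusted p = 5.64e-04), but its adult pools were uneven, at 212, 190.4, 125 and 130.3 CPM. All 6 betaNACtes genes, testis copies of a ribosome-associated chaperone subunit grouped after the values were seen, fell by 0.82 to 1.27. They are X-linked near-copies of one another.

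Genes of the somatic niche and cyst cells moved in both directions. Of 41 cyst, hub and niche signalling genes 18 rose (43.9%), 11 fell (26.8%) and 12 were not called (median 0.22, and −0.18 with library size alone). Of all tested genes 36.1% were higher and 38.5% lower. The hub adhesion gene Fas3 held 43.5, 45.6, 60.8 and 44.3 CPM in adult pools and 1.45, 1.66, 2.14 and 1.703 in L3 pools (4.77 ± 0.15, adjusted p = 8.23e-11). hh, a ligand made in the hub, went from 0.873, 0.597, 0.924 and 0.817 to 9.36, 10.5, 10.3 and 9.01 CPM (3.61 ± 0.16, adjusted p = 1.30e-09), and the BMP antagonist gene sog from 2.78 to 17.2 (2.58 ± 0.13, adjusted p = 3.49e-09). dpp, a BMP ligand gene (13.7 ± 2.25 against 4.66 ± 0.967 CPM, 1.601 ± 0.15, adjusted p = 1.12e-06), and so, a cyst cell homeobox gene (51.03 ± 3.05 against 16.8 ± 0.634 CPM, 1.59 ± 0.07, adjusted p = 1.96e-09), rose as well. The JAK-STAT ligand gene upd1, which hub cells make, had a smaller log2 change, a comparison made without a test (34.5 ± 2.35 against 19.7 ± 1.91 CPM, 0.795 ± 0.09, adjusted p = 4.58e-06).

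tj, a factor of early cyst cells, was among the members that fell and held 4.46, 3.76, 3.55 and 4.51 CPM in adults and 7.37, 9.42, 8.54 and 7.42 in L3 (−1.03 ± 0.14, adjusted p = 2.11e-05). zfh1 fell by 0.90, with adult pools spread at 21.2, 22.97, 33.6 and 37.2 CPM under L3 pools of 56.04, 47.9, 48.8 and 50.1. The JAK kinase gene hop (−0.68 ± 0.10, adjusted p = 4.00e-05) and eya (−0.41 ± 0.07, adjusted p = 2.22e-04) fell too. Fas3, hh and sog are also used in other epithelia, and what share of their RNA came from the terminal epithelium at the base of the adult testis was not tested.

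Hormone-response genes changed in a gene-by-gene manner. Of 22 ecdysone genes 4 rose (18.2%, against 36.1% of all tested genes) and 8 fell (36.4%, near the 38.5% of all). Their median was −0.11. The early ecdysone gene br held 5.01, 7.48, 7.47 and 8.64 CPM in adults and 44.3, 42.97, 41.7 and 50.7 in L3 (−2.73 ± 0.14, adjusted p = 3.15e-09), and the nuclear receptor genes Hr4 (3.59 ± 0.239 against 10.1 ± 1.05 CPM, −1.52 ± 0.13, adjusted p = 3.76e-07) and Eip78C (0.552 ± 0.398 against 1.79 ± 0.326 CPM, −2.08 ± 0.33, adjusted p = 8.99e-05) fell with it. Eip93F, a later ecdysone gene, rose (38.7 ± 2.49 against 13.6 ± 1.703 CPM, 1.500 ± 0.10, adjusted p = 3.41e-08), as did ImpL2 (1.37 ± 0.12, adjusted p = 4.54e-07). Of 10 juvenile hormone genes 6 rose (60%) and 2 fell (20%), against 36.1% and 38.5% of all tested genes. The degradation genes Jhe (4.35 ± 1.16 against 0.0723 ± 0.0171 CPM, 5.68 ± 0.38, adjusted p = 4.36e-08) and Jheh3 (9.78 ± 2.62 against 1.896 ± 0.369 CPM, 2.48 ± 0.20, adjusted p = 2.62e-07) rose and the receptor gene Met fell (13.7 ± 1.699 against 21.2 ± 1.43 CPM, −0.67 ± 0.10, adjusted p = 5.93e-05). Kr-h1, the response gene of that receptor, was near 1 CPM at both stages and not called (0.01 ± 0.36, adjusted p = 0.99).

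Deep losses were found in the Enhancer of split complex, whose genes answer Notch signalling. Only 5 of 15 genes of the complex and its Bearded-type relatives had enough counts, and all 5 fell. The 15 genes summed to 0.771 to 1.88 CPM in adult pools and 26.8 to 32.6 in L3 pools. Members thus passed the count filter mainly through L3, and that all 5 fell follows in part from the filter. E(spl)m2-BFM held 0.1101, 0.0965, 0.127 and 0.376 CPM in adult pools and 11.3, 9.35, 8.77 and 10.8 in L3 pools (−6.26 ± 0.26, adjusted p = 7.18e-10). E(spl)m3-HLH went from 2.91, 2.19, 2.42 and 3.68 to 0.05504, 0.2895, 0.127 and 0 CPM (−4.04 ± 0.40, adjusted p = 1.46e-06). E(spl)m7-HLH had 59 counts in L3 and 1 in adults, a ratio of 50.8 (95% interval of counting 8.77 to 2041). Outside the complex, 4 genes were called at least 8-fold lower. CG4586 (0.264 ± 0.181 against 3.06 ± 0.887 CPM, −3.21 ± 0.34, adjusted p = 2.62e-06), the cuticle gene Cpr49Ac (2.16 ± 0.258 against 19.98 ± 3.32 CPM, −3.15 ± 0.16, adjusted p = 4.83e-09) and lncRNA:iab4, with 67 L3 counts and none in adults (at least 19.2-fold lower), did not overlap. Prosalpha1 did, with 0, 0.2895, 1.65 and 0 CPM in adults and 0, 48.5, 8.89 and 0.749 in L3, so its call (−5.21 ± 1.56, adjusted p = 0.00875) rested on uneven pools and was lost with DESeq2 (adjusted p = 0.0565) and limma voom (0.178).

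The steepest rises belonged to genes nearly silent in L3 testes, most of them without a name. CG18628 held 2993, 3032, 4472 and 3522 CPM in the adult pools against 1.65, 0.5304, 0.404 and 0.749 in L3 (12.16 ± 0.27, adjusted p = 1.85e-12), which placed it among the 12 largest gains in CPM as well as in ratio. The scpr genes, which code for secreted proteins of the CAP family and lie close together on 3R, rose as a trio. scpr-C held 883, 977, 859 and 787 CPM in adults and 0.9695, 1.13, 1.04 and 0.545 in L3 (9.88 ± 0.15, adjusted p = 1.19e-13), scpr-A 736 ± 148 against 0.514 ± 0.306 (10.58 ± 0.24, adjusted p = 2.59e-12) and scpr-B 261 ± 19.001 against 0.215 ± 0.0656 (10.23 ± 0.14, adjusted p = 8.19e-14). They resemble each other, so counts may be exchanged among the 3, and their sum ran from 1623 to 2161 CPM in adults and from 1.16 to 2.23 in L3.

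Other genes of this kind had a few or no L3 counts, so their changes are given as bounds or ratios. CG10513 held 51.1, 66.6, 50.04 and 30.4 CPM in adults and had no L3 count, at least 1077-fold higher against a floor of 3 counts over the group. CG3713 (42.5 CPM) and CG42870 (40.4 CPM) were likewise at least 831-fold and 727-fold higher. CG32457 had 6356 adult counts and 1 in L3, a ratio of 7379 (95% interval of counting 1324 to 291490), and NAAT1, an amino acid transporter gene, 2615 and 1 (ratio 3036, 544 to 119952). The immune-induced peptide gene IM4 held 173, 251, 205 and 194 CPM in adults against 0.135 ± 0.0644 in L3 (10.44 ± 0.22, adjusted p = 1.24e-12). CG16772 was uneven among adult pools, at 78.7, 41.8, 149 and 134 CPM, and so was CG16898, at 63.1, 96.3, 49.9 and 27.8, yet every adult pool lay far above the L3 pools, where each gene had 2 counts (ratios 2223, 615 to 18364, and 2096, 579.8 to 17314).

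**Figure D4:**
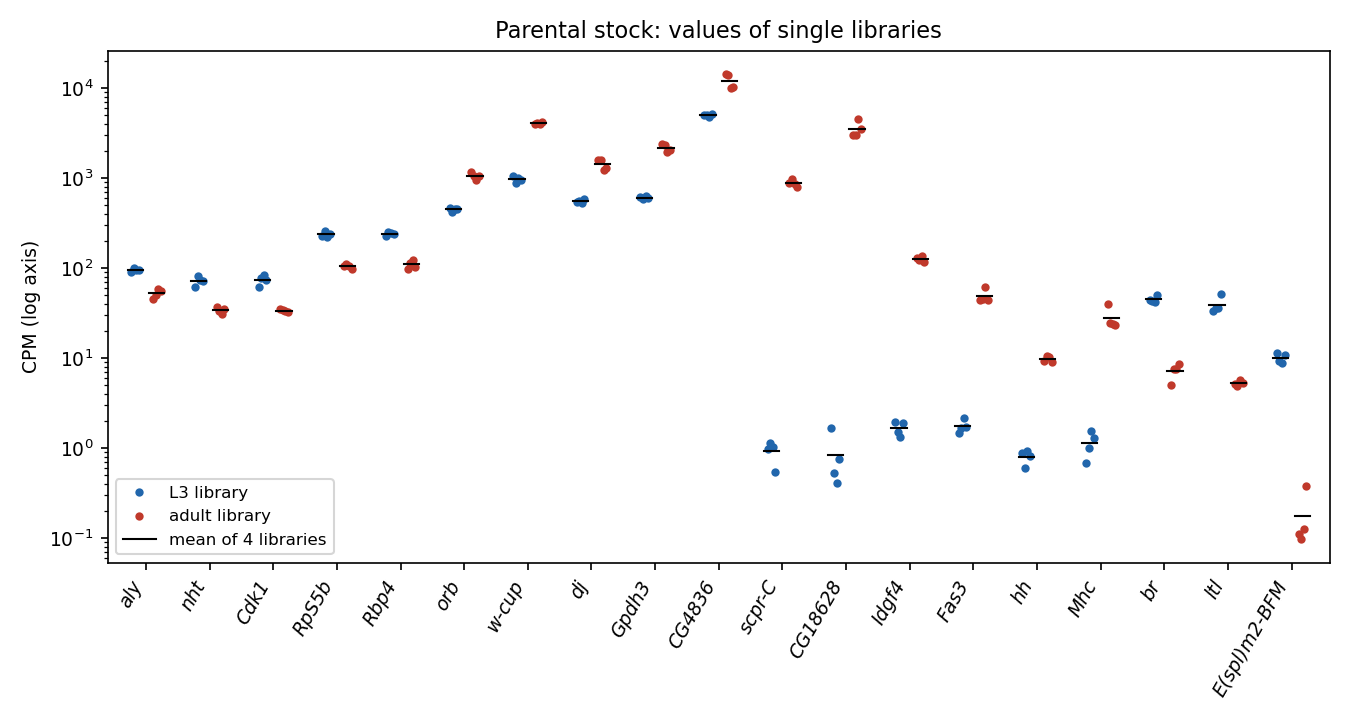
CPM of 19 genes (x) in each L3 (blue) and adult (red) parental pool on a log axis, with black bars for the mean of 4. For every gene shown the stages are apart without overlap, from the modest fall of aly and nht at the left through the rise of CG18628 to the fall of E(spl)m2-BFM at the right.

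Falls of comparable abundance were milder. ltl, in full larval translucida, held 5.17, 4.92, 5.701 and 5.26 CPM in adults and 33.5, 35.5, 36.1 and 51.1 in L3 (−2.91 ± 0.15, adjusted p = 5.52e-09). The ornithine aminotransferase gene Oat (9.27 ± 2.41 against 23.5 ± 1.998 CPM, −1.24 ± 0.14, adjusted p = 5.91e-06), the splicing factor gene SC35 (45.02 ± 1.61 against 105 ± 8.68 CPM, −1.23 ± 0.08, adjusted p = 2.72e-08) and aust, the male meiotic form of Borealin (20.2 ± 2.77 against 48.4 ± 4.21 CPM, −1.27 ± 0.10, adjusted p = 2.33e-07), followed. Vha16-5, a proteolipid subunit of the vacuolar ATPase, fell from 69.03, 63.9, 59.8 and 71.2 to 27.8, 25.1, 22.9 and 25.2 CPM (−1.37 ± 0.09, adjusted p = 2.58e-08). Its family, grouped after the values were seen, had 10 of 31 members higher and 10 lower, also near the shares of all tested genes (median 0.12, and −0.29 with library size alone). Vha36-2 (195 ± 20.5 against 66.8 ± 6.39 CPM, 1.55 ± 0.09, adjusted p = 2.02e-08) and Vha16-1 (1.23 ± 0.10, adjusted p = 2.18e-07) rose while the sister copies Vha16-3 (−1.19 ± 0.14, adjusted p = 6.25e-06) and Vha16-4 (−1.11 ± 0.12, adjusted p = 3.46e-06) fell with Vha16-5.

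Genes of muscle rose in 18 of 21 cases and fell in none (median 3.39). Mhc held 40.1, 24.4, 23.9 and 23.3 CPM in adults and 0.679, 0.995, 1.56 and 1.29 in L3 (4.601 ± 0.25, adjusted p = 6.20e-09), and the troponin T gene up rose from 0.125 to 7.28 CPM (5.93 ± 0.48, adjusted p = 2.13e-07). The summed level of the 27 muscle genes was 1155 to 1246 CPM in adult pools and 458 to 491 in L3 pools, and none of them lacked counts at either stage. Of 15 basement membrane genes 7 rose and 4 fell (0.06, and −0.35 with library size alone), with LanA lower (37.7 ± 2.61 against 77.8 ± 6.23 CPM, −1.04 ± 0.08, adjusted p = 1.78e-07) and Pxn higher (1.85 ± 0.19, adjusted p = 2.06e-06). The basement membrane shares of 46.7% higher and 26.7% lower stand beside 36.1% and 38.5% of all tested genes. Imaginal disc growth factor genes, grouped after the values were seen, rose in all 5 tested cases, with Idgf4 at 128, 122, 137 and 118 CPM in adults and 1.94, 1.53, 1.33 and 1.91 in L3 (6.26 ± 0.12, adjusted p = 5.63e-13).

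Transcripts of other tissues differed between the stages as well, and their part in the results was not tested. Fat body genes fell in 7 of 13 cases (53.8%, against 38.5% of all tested genes) and rose in 3 (23.1%, against 36.1%). Their 17 members summed to 453 to 586 CPM in adults and 218 to 359 in L3. The larval storage protein gene Lsp2 (12.3 ± 4.31 against 50.9 ± 14.4 CPM, −1.93 ± 0.23, adjusted p = 6.68e-06) and the storage protein receptor gene Fbp1 (10.7 ± 8.22 against 70.1 ± 26.1 CPM, −2.403 ± 0.36, adjusted p = 5.12e-05; adjusted p = 0.0600 with all 64 libraries) fell, while Tsf1, an iron carrier gene (297 ± 42.9 against 6.59 ± 1.81 CPM, 5.500 ± 0.18, adjusted p = 9.30e-11), rose. Hemocyte genes rose in 7 of 9 cases. Their 15 members summed to 142 to 203 CPM in adults and 86.9 to 92.0 in L3, where Sr-CI and He were at 0. Sr-CI had enough counts to be tested and He did not. NimC1 rose from 2 counts in L3 to 162 in adults, a ratio of 94.03 (95% interval of counting 25.6 to 783), whereas Hml rose less (31.5 ± 7.06 against 22.2 ± 2.37 CPM, 0.48 ± 0.14, adjusted p = 0.00951) and was not called with library size alone (adjusted p = 0.683).

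Accessory gland and duct genes rose in 6 of 9 tested cases, and their 35 members summed to 63.98 to 113 CPM in adults and 32.4 to 37.2 in L3. A gene with few L3 counts could pass the count filter only through the adult pools. Tallies of this list, the hemocyte list above and the trachea, gut and antimicrobial lists below therefore favoured rises. Acp36DE, a seminal fluid protein gene, was not called (11.97 ± 4.19 against 13.2 ± 0.642 CPM, −0.28 ± 0.16, adjusted p = 0.128), but was called lower with limma voom, with library size alone and without adult replicate 4 (adjusted p = 0.0436, 0.00213 and 0.00720). Acp98AB, Acp33A, Acp24A4, Sfp96F, Mst57Dc, Dup99B, EbpII and intr were at 0 in L3, but none of them had enough counts at either stage to be tested. Nervous and imaginal disc genes summed to 126 to 153 CPM in adults and 94.2 to 108 in L3 (5 of 12 higher, 41.7%, near the 36.1% of all tested genes, and none lower), with elav not called (1.94 ± 0.655 against 1.47 ± 0.229 CPM) and nSyb higher (21.7 ± 2.38 against 4.85 ± 0.654 CPM, 2.19 ± 0.12, adjusted p = 7.22e-09). Trachea and gut genes (4 of 5 higher) summed to 52.2 to 80.4 and 26.7 to 29.5 CPM, with Amy-p, betaTry, alphaTry, Jon65Aiv and Jon99Cii at 0 in L3. Of these only Amy-p had enough counts to be tested. Antimicrobial peptide genes (2 of 4 higher) summed to 11.3 to 20.6 and 6.70 to 8.10 CPM.

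Several families of detoxification and secreted proteins, grouped after their values were seen, were mostly higher in adults. Cytochrome P450 genes rose in 36 of 52 cases and fell in 4 (median 1.14), glutathione S-transferase genes in 19 of 29 with 5 lower (0.88), serpin genes in 14 of 18 with 3 lower (1.29) and tetraspanin genes in 14 of 24 with 5 lower (1.11). Cyp6d5 held 287, 402, 278 and 179 CPM in adults and 5.33, 6.697, 6.41 and 5.58 in L3 (5.58 ± 0.23, adjusted p = 5.43e-10). Odorant binding protein genes, which also act outside the nose, rose in 9 of 14 cases and fell in 1, with Obp56d at 20.1 ± 1.99 against 1.03 ± 0.221 CPM (4.32 ± 0.15, adjusted p = 1.92e-10). UDP-glycosyltransferase genes were mixed, with 9 of 17 higher (52.9%) and 4 lower (23.5%), against 36.1% and 38.5% of all tested genes.

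Some of the steep rises lay next to each other. There were 9 runs of at least 4 tested neighbours that each rose 4-fold or more. On 3R from 25275790 to 25291366, in the coordinates of the count table, the 5 genes were CG10513, with no L3 count, and CG10514, CG31300, CG31104 and CG11893, with 1 to 4 counts in L3 and 120 to 2227 in adults. A run on 3R at 11157098 to 11208633 held Ugt302C1 (6.44 on the log2 scale), cu (2.61), Ugt35B1, with no L3 count and at least 173-fold higher, and CG4757 and Ugt35A1, with 1 L3 count each. A run on 2R at 7025010 to 7036949 held Tsp42Ef, Tsp42Eg and Tsp42Ei (2.16 to 7.87 on the log2 scale) and Tsp42Eh, with no L3 count and at least 71.2-fold higher. Neighbours of 1 family can share reads, and no test of clustering was made.

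Of 691 tested lncRNA genes 329 rose and 111 fell, with a median of 0.40. With library size alone 224 were higher and 216 lower (−0.01). Of 247 antisense RNA genes 86 rose (34.8%, near the 36.1% of all tested genes) and 63 fell (25.5%, against 38.5% of all), with a median of 0.03. With library size alone 47 were higher and 114 lower (−0.40). lncRNA:CR43684 held 26.97, 9.22, 8.49 and 8.26 CPM in adults and no L3 count, at least 298-fold higher, although its first pool stood apart. lncRNA:CR44493 (18.9 ± 3.12 against 0.321 ± 0.147 CPM, 5.92 ± 0.23, adjusted p = 4.05e-10) and lncRNA:CR44112 (11.1 ± 2.11 against 1.09 ± 0.405 CPM, 3.42 ± 0.22, adjusted p = 3.26e-08) rose too. In the other direction lncRNA:CR43264, the most abundant of those that fell by the naming rule, went from 335, 444, 339 and 508 to 178, 200.2, 175 and 137 CPM (−1.22 ± 0.14, adjusted p = 5.55e-06). asRNA:CR43872 fell (11.7 ± 2.21 against 27.6 ± 2.16 CPM, −1.29 ± 0.12, adjusted p = 1.04e-06) and asRNA:CR46195 rose (290 against 3 counts, ratio 112, 38.02 to 547), but the libraries keep strand and the strand option used in counting is not known here. Reads of an antisense gene and its partner may therefore be mixed.

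The X and the autosomes were set side by side. On the X 32.7% of 1816 tested genes were higher and 40.4% lower, and 12.4% were higher by 2-fold, against 14.6% to 19.0% on the large autosome arms. Of 17 tested Y-linked genes 11 were higher and 4 lower, among the former the dynein heavy chain gene kl-3 (54.8, 46.2, 36.1 and 39.8 CPM in adults and 12.6, 14.9, 14.03 and 14.9 in L3). Genes that changed by 2-fold more often lay in 1 exon block, at 26.5% of those higher and 27.9% of those lower, against 18.2% of all tested genes. Among genes 8-fold higher the share was 13.2%. These shares are descriptions with no test.

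The same stage change was measured in separate libraries of the fertile lines. Of 1811 genes 2-fold higher in the parental stock and tested in BM4, 1542 (85.1%) were also called 2-fold higher there, against 19.1% of all genes tested in BM4. In BM21 it was 1542 of 1826 (84.4%), against 17.5%. For 2-fold falls the numbers were 102 of 307 (33.2%) in BM4 against 3.06% of all genes tested there, and 137 of 297 (46.1%) in BM21 against 3.45%. For falls of any size they were 86.1% in BM4 against 40.1%, and 87.3% in BM21 against 38.5%, and for rises of any size 88.1% against 37.7% and 88.6% against 36.4%. Taken from the side of the lines, 75.1% of the 2-fold rises in BM4 and 82.7% of those in BM21 were also called in the parental stock. No library is shared between these fits.

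TAF and tMAC regulators stood at −0.92, −0.81 and −0.86, cup and comet genes at 0.91, 1.16 and 0.87 and mitotic genes at −0.61, −0.44 and −0.46 in the parental stock, BM4 and BM21. Fat body genes stood at −1.21, −2.504 and −2.12, the E(spl) and Brd genes at −6.26, −5.43 and −5.35, the scpr genes at 10.23, 11.64 and 11.59 and the accessory gland list at 0.902, 3.805 and 3.61, as medians on the log2 scale. The summed level of that last list was 1782 and 1819 CPM in adult BM4 replicates 2 and 3, 2866 in adult BM21 replicate 4 and 64.6 to 334 in the other adult pools of the 3 stocks. CG18628 changed by 12.15, 11.69 and 10.91, scpr-C by 9.87, 10.48 and 9.77 and Fas3 by 4.77, 4.100 and 4.14 in the same order, and br by −2.73, −2.57 and −2.54. Of these differences from the parental stock, that of Fas3 from BM4 passed the test (adjusted p = 0.041).

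**Figure D5:**
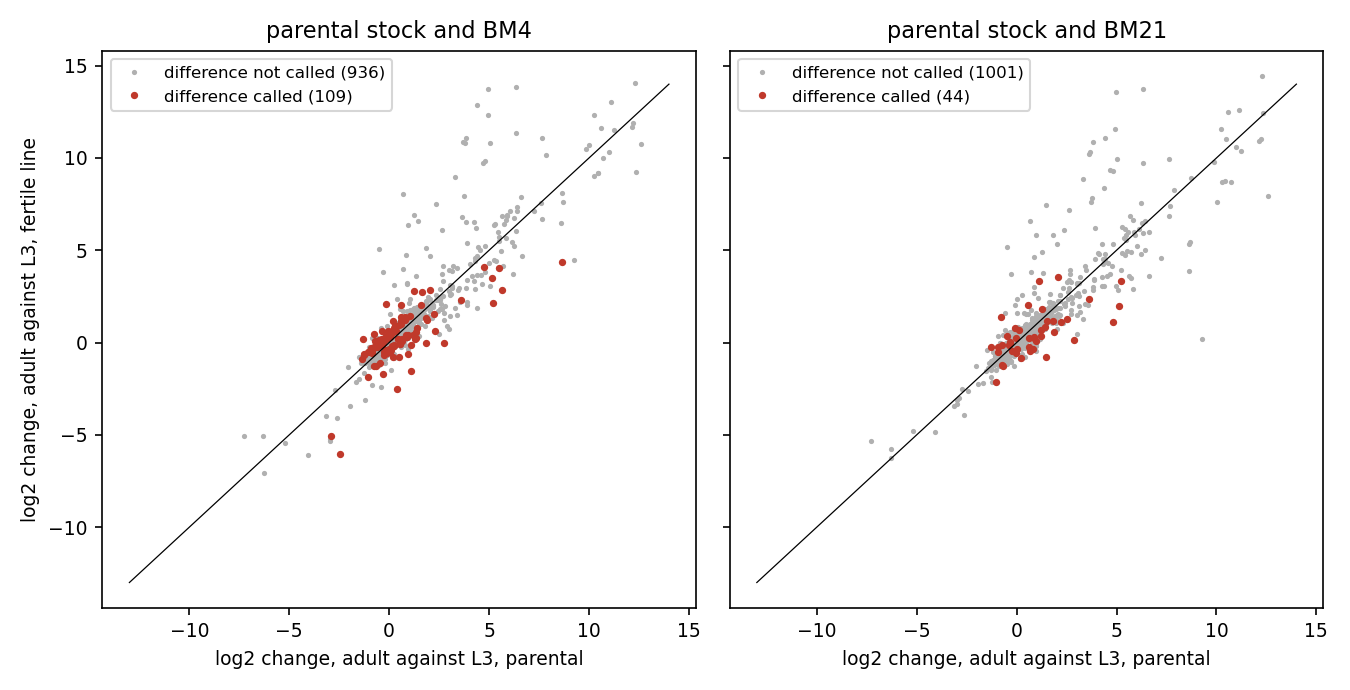
Log2 change from L3 to adult in the parental stock (x) against BM4 or BM21 (y) for 1045 named genes and list members, from a fit of 24 libraries. Red points passed the test of the difference (109 for BM4 and 44 for BM21), and the line marks equal change.

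A test of the difference itself (edgeR, 24 libraries, 12378 genes) called 691 genes (5.58%) with a higher stage change in the parental stock than in BM4 and 743 (6%) with a lower one. For BM21 the numbers were 321 (2.59%) and 198 (1.6%). The parental libraries stand in both tests, so the 2 results are not independent. Without L3 parental replicate 4 the count of 691 came to 454. CG11068 was the most abundant gene named by the rule for these differences. It went in the parental stock from 279, 245, 241 and 246 CPM to 403, 415, 440.3 and 449, and in BM4 from 146, 89.4, 173 and 142 to 12.6, 12.8, 12.8 and 13.4 (difference 4.17 ± 0.20, adjusted p = 1.64e-12).

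Genes that rose in the parental stock and less in the lines included NPFR, a neuropeptide F receptor gene, with 7.699, 8.58, 11.2 and 11.8 CPM in adult parental pools, 1.11, 1.52, 1.25 and 2.18 in BM4 and 1.56, 2.18, 0.975 and 2.62 in BM21 (differences 3.81 ± 0.67, adjusted p = 6.87e-04 and 3.94 ± 0.64, adjusted p = 5.71e-04). CG9572 (4.55 ± 0.64, adjusted p = 1.42e-04) and CG13323 (6.21 ± 1.07, adjusted p = 0.00101) did so against BM21. Hn, the phenylalanine hydroxylase gene, was low in the parental stock at both stages, at most 3.96 CPM, and went in BM4 from 31.3, 36.2, 35.6 and 29.96 to 10.7, 8.03, 12.2 and 12.95 CPM. In other genes the parental stock had little or no RNA at either stage. CG44355 held 0 counts in parental adults and at most 0.822 CPM in parental L3, but 34.7, 33.8, 31.8 and 30.8 CPM in adult BM4 and 36.4, 39.1, 37.1 and 38.6 in adult BM21. lncRNA:CR45568 was alike, with at most 0.0496 CPM in parental adults and 16.04, 14.4, 14.9 and 15.7 in adult BM4. CG13946 held 1.12, 0.595, 1.404 and 1.11 CPM in parental adults and 86.6, 75, 71.1 and 76.1 in BM4 adults, with no L3 count in BM4. Pp1-Y1, a Y-linked gene with near-identical copies, had at most 1 pool with a count in the parental stock and 9.58, 9.43, 15.1 and 13.6 CPM in L3 BM21 but 0 in adult BM21, so no fold is given.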

How the data were processed

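RNA-seq of pooled testes was taken from the submitters' processed table. Its values are whole-number counts of reads per gene as deposited, not normalized, for 17606 genes. Per the submitters' processing notes, bcl2fastq 1.8, cutadapt, HISAT2 2.1.0 and featureCounts 1.6.1 were used, and per the labels' protocols the libraries keep strand. For the genome build, the annotation and the strand option of featureCounts, the sources used here give nothing. Coordinates are those of the table, and 17494 of its genes have the same position in the BDGP6 annotation.

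Groups came from the titles. The 8 parental libraries, with depths of 2971832 to 24650332 counts, were fitted with edgeR 4.0.16 (quasi-likelihood, TMM, filterByExpr) in R 4.3.3, and p-values were adjusted over all 11286 genes that passed the filter. Differences between stocks were interaction contrasts in a fit of 24 libraries with 12378 genes. CPM divide each count by the TMM-scaled library size, except in the count of genes at 1 CPM or more, which uses library size alone. SE is that of the log2 change. Bounds use a floor of 3 counts over a group, and intervals of ratios are 95% exact ones that cover counting error only, since reads are not independent molecules. Paralog ratios used 0.1 CPM added and exon length.

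The genes named were the 12 largest rises and falls in CPM, the 12 largest log2 changes at a mean of at least 4 on the log2 CPM scale and the 5 largest among noncoding genes at 1 or more, each called and without overlap. The 5 largest stock differences each way and members of the gene lists were added. CG4586, Cpr49Ac, lncRNA:iab4 and Prosalpha1 were named after their values were seen. Members and lists were chosen with earlier results of these data known, and 14 of the listed symbols did not match the table.

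Tested on simulated data with 11180 genes, the parental fit recovered 98% of changes of 1 and 100% of changes of 2 on the log2 scale, with 3.41% of its calls on unchanged genes. The tests of stock differences recovered 68% (BM4) and 76% (BM21) of changes of 1, and 97% and 98% of changes of 2. Only a small part of the genes was changed there, evenly up and down. The simulation therefore cannot test the scaling of data in which most genes differ. Alternatives were RLE size factors, library size alone, no filter, a filter at a mean of 10 counts, DESeq2 1.42.0, limma voom 3.58.1, all 64 libraries, a replicate block and each library left out. A further one, without both adult BM4 libraries high in accessory gland transcripts, was chosen after seeing the data. Promoter motifs and sequences were not analysed here.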

Additional observations from a re-analysis of the deposited data

Results flagged for a closer look

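Single pools stood apart from the other 3 of their stage in some of the values reported above. A pool was taken to stand apart where its gap to the nearest pool, divided by the range of the group, passed Dixon's 95% critical value. This was so in 30 of 430 groups of 4, 7 of them a pool with counts beside 3 without any, and the rule by itself picks about 1 in 20 groups. The share of counts in genes called 2-fold lower was 0.421% in adult replicate 3 and 0.394% to 0.397% in the other adult pools. High pools were found for CG12699 in adult replicate 4 (7016 CPM, others 6191 to 6273), E(spl)m2-BFM in adult replicate 4 (0.376 CPM, others 0.0965 to 0.127), Fas3 in adult replicate 3 (60.8 CPM, others 43.5 to 45.6) and Mhc in adult replicate 1 (40.1 CPM, others 23.3 to 24.4). Others on this side were Obp56d in adult replicate 1 (23.1 CPM, others 18.8 to 19.4), Pxn in adult replicate 3 (13.9 CPM, others 7.89 to 8.81), Rcd-1 in adult replicate 4 (289 CPM, others 230.1 to 236) and elav in adult replicate 3 (2.91 CPM, others 1.502 to 1.69). Others on this side were lncRNA:CR43684 in adult replicate 1 (26.97 CPM, others 8.26 to 9.22), lncRNA:iab4 in L3 replicate 4 (1.63 CPM, others 0.9695 to 1.04), ltl in L3 replicate 4 (51.1 CPM, others 33.5 to 36.1) and mRpL41 in adult replicate 3 (10.9 CPM, others 8.64 to 9.01). Others on this side were mia in adult replicate 4 (61.2 CPM, others 51.1 to 51.8), schuy in L3 replicate 1 (192 CPM, others 172 to 175), scpr-A in L3 replicate 1 (0.9695 CPM, others 0.332 to 0.409) and so in adult replicate 4 (55.6 CPM, others 49.2 to 49.7). Low pools were found for Hr4 in adult replicate 2 (3.23 CPM, others 3.67 to 3.76), RpS5a in adult replicate 4 (162 CPM, others 178 to 180.3), Tsp42Ef in adult replicate 4 (21.03 CPM, others 25.6 to 26.3) and Ugt302C1 in adult replicate 4 (12.02 CPM, others 19.5 to 20.5). Others on that side were Vha16-1 in L3 replicate 4 (141 CPM, others 162 to 163) and nSyb in L3 replicate 4 (3.88 CPM, others 5.04 to 5.25). A pool with counts beside 3 without any was found for CG31104 (0.0577 CPM, L3 replicate 3), CG31300 (0.133 CPM, L3 replicate 2), CG32457 (0.09695 CPM, L3 replicate 1), CG4757 (0.09695 CPM, L3 replicate 1), E(spl)m7-HLH (0.05504 CPM, adult replicate 1), NAAT1 (0.0681 CPM, L3 replicate 4) and Ugt35A1 (0.0681 CPM, L3 replicate 4).

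The stage change differed between the stocks for a part of the genes, by the test of the difference itself. The count of genes with a higher change in the parental stock was 691 against BM4 and 321 against BM21, and that with a lower change was 743 and 198. Higher fitted log2 changes in the parental stock than in BM21 were found for CG13323 (6.21), CG32647 (5.73), CG9572 (4.55) and NPFR (3.94), and than in BM4 for CG32647 (5.83), CG11068 (4.17), NPFR (3.81) and Hn (3.76). Lower ones were found against BM21 for CG44355 (−6.19), lncRNA:CR45568 (−4.44), Lst (−2.84), veil (−2.45) and MFS12 (−2.35). Against BM4 they were found for BG642312 (−8.97), CG13946 (−8.70), CG44355 (−6.99), CG7409 (−4.33) and lncRNA:CR45568 (−3.91). The fitted differences of Pp1-Y1 (12.28 for BM21 and 11.44 for BM4) set groups without counts against each other and depend on the prior count. The same holds in part for CG32647, which had no parental L3 count, for CG13946, which had none in L3 BM4, and for CG44355, which had no count in parental adults. lncRNA:CR45568 had counts in 1 parental adult pool. BG642312 was high in adult BM4 replicates 2 and 3 (77.2 and 102.4 CPM), the pools with 1782 and 1819 CPM of accessory gland genes, and low in the other 2. Without both pools its difference was −4.28 and no longer called (adjusted p = 0.382).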

How the results depend on the processing

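With library size alone 2693 genes were called higher in adults, and at 2-fold 1154 higher and 2197 lower. That scaling shifts the log2 changes by −0.41 at the median. Without a filter on low counts 476 genes were called 2-fold lower. The difference in the share of the 100 most abundant genes came to 7.47 percentage points without rRNA and mitochondrial genes. For other settings (RLE size factors, a filter at a mean of 10 counts, DESeq2, limma voom and all 64 libraries) the 4 counts of the parental comparison stayed within 1.5 times, with the 2-fold falls at 222 under DESeq2 and RLE size factors. DESeq2 called 4130 genes higher and 3890 lower.

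Leaving out each library in turn gave 3853 to 4155 genes higher, 4018 to 4453 lower, 1846 to 2036 higher at 2-fold and 303 to 379 lower at 2-fold. The differences in genes at 1 CPM or more ran from 319 to 401 and in the share of the top 100 from 6.24 to 6.84 percentage points. For the stage change against BM4 the counts ran from 454 to 763 higher in the parental stock, with the lowest one without L3 parental replicate 4, and from 503 to 925 lower. Against BM21 they ran from 216 to 351 and from 134 to 216. Without both adult BM4 pools high in accessory gland transcripts the counts were 503 and 546. The cause of these shifts was not tested.

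No label says whether replicate numbers pair the samples. Deviations of adult and L3 pools of the same number correlated at −0.27, 0.03, 0.11 and −0.25. Those of unlike number correlated at −0.23 to 0.31, a like range, so these values cannot settle the pairing. With the number as a replicate block 3856 genes were higher and 4046 lower, 1877 and 304 at 2-fold, and the stage change differed from BM4 in 668 and 711 genes and from BM21 in 329 and 194. Among the genes named, twe (adjusted p = 0.0775), COX4L (0.0670), Prosbeta4R1 (0.0612), s-cup (0.0570) and Prosalpha3T (0.0518) were not called with that block.

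With library size alone the log2 changes of Mcm10 (−0.14), Prosalpha6T (−0.039), Prosbeta2R1 (−0.12), Taf4 (−0.39), mip130 (−0.21), soti (−0.029) and tHMG1 (−0.23) turned sign. Depth limits the genes at few counts, above all in adult replicate 4 with 2971832 counts, and 32 genes had no L3 count, so that their changes are lower bounds. Fbp1 was no longer called in the fit of all 64 libraries (adjusted p = 0.0600).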

Other observations

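Cuticle protein genes of the Cpr family had 14 of 70 members with enough counts. Of these 6 (42.9%) were higher and 3 (21.4%) lower in adults, against 36.1% and 38.5% of all tested genes. Their median of 0.23 turned to −0.19 with library size alone. Cpr92A rose from 0.3704 ± 0.206 CPM in L3 to 27.6 ± 10.04 in adults (log2 change 6.096 ± 0.38 SE, adjusted p = 2.18e-08). Among serpins, inhibitors of serine proteases, Spn28Dc went from 0.194, 0.265, 0.115 and 0.204 CPM in L3 pools to 2.92, 2.99, 3.04 and 3.005 in adult pools (log2 change 3.89 ± 0.26 SE, adjusted p = 4.39e-08). Of the 13 tested genes of the mitochondrial genome 1 was lower and none higher, and with rRNA genes these took 2.20% of adult and 3.04% of L3 counts.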
